A study of Mus musculus with 4 samples.

Results

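Cell cycle exit in muscle cells was followed through 9 genes chosen by name: the CDK inhibitor genes Cdkn1a, Cdkn1b, Cdkn1c and Cdkn2c, the growth arrest and DNA damage genes Gadd45a, Gadd45b and Gadd45g, the retinoblastoma gene Rb1 and the cyclin D3 gene Ccnd3. Of these, 8 were among the 13824 gene symbols listed, with 30 of the 36231 listed transcripts, and all 8 passed the minimum level for a test. Cdkn1c is not analysed here. RNA came from C2C12 cells, a mouse myoblast line that fuses into myotubes when serum is lowered. In 2 libraries the cells had received an siRNA against Mef2a (siMEF2A) and in 2 a scrambled siRNA, each at 30 nM by lipofection, and all had then spent 48 h in differentiation medium with 2% horse serum. The libraries are called 1 and 2 within each group after the sample titles, whereas the column headers of the files number the scrambled ones 2 and 3, and whether they are separate cultures is not stated, so a p-value speaks only to library-to-library spread, possibly technical. All groups come from a single cell line and a single time point, and no proliferating culture is among them.

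Myoblasts must leave the cell cycle for good before they form contractile muscle. CDK inhibitors of the Cip/Kip family (p21, p27, p57) and of the INK4 family (p18 among them) block cyclin-dependent kinases, which keeps the retinoblastoma protein unphosphorylated and bound to E2F factors, so that S phase genes stay silent. GADD45 proteins are small stress sensors that bind p21, PCNA and the kinase MAP3K4. Cyclin D3 is unusual among D cyclins in that it accumulates during myoblast differentiation, where it binds the retinoblastoma protein. MEF2A, the silenced factor, is a MADS-box transcription factor that works with myogenin and its relatives at A/T-rich sites of muscle genes.

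Values are FPKM, the number of fragments divided by transcript length and by the library's fragment total, summed over the listed transcripts of a gene. Differences are log2 fold changes of FPKM + 1, siMEF2A minus scrambled, from a limma fit over the 11824 genes whose mean reached 1 FPKM, and a gene was called at a Benjamini-Hochberg adjusted p under 0.05. The targeted gene Mef2a was at 12.7 and 14.3 FPKM in the siMEF2A libraries and at 25.8 and 32.2 FPKM in the scrambled libraries, 46.5% of the scrambled mean (adjusted p = 3.35e-05, limma). Fragment totals relative to scrambled library 1, estimated from low FPKM, were 0.849 and 0.847 in the siMEF2A libraries and 1.05 in scrambled library 2. Each estimate rests on 7 to 14 of 600 genes, and absolute depth is unknown. Of 7 markers of cultured myoblasts and myotubes 6 were listed, each above 1 FPKM, with a summed level of 519 and 572 FPKM in siMEF2A and 884 and 994 FPKM in scrambled. Of 16 markers of macrophages, endothelium, fat, epithelium and neurons 2 were listed, Cd68 at 1.61 to 1.78 FPKM and Krt14 at 0.327 to 0.567 FPKM.

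Cdkn1a has a distal and a proximal start, and the 250 bases before each start are shown first. Their transcripts differed in direction between the groups, but neither difference passed the limma test. In the distal sequence (chr17:29090729-29090978, plus strand, mm10) capitals mark the matches to the p53 half-site. In the proximal sequence (chr17:29093519-29093768, plus strand) they mark the match to the E box CANNTG, a general pattern that includes the sites of myogenin and its relatives.
Cdkn1a distal: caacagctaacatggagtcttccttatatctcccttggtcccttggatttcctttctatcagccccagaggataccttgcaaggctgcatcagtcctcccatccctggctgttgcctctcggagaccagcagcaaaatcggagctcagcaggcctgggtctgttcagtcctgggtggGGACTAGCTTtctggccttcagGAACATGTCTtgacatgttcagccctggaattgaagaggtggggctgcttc
Cdkn1a proximal: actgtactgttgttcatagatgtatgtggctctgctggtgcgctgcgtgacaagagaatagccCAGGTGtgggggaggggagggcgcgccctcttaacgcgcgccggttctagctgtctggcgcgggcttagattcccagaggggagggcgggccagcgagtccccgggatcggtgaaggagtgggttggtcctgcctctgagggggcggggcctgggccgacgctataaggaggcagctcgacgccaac
The 3 Gadd45 genes are shown because they differed among themselves in level, although none of the 3 passed the limma test between the groups. Their sequences are chr6:67037408-67037657 on the minus strand for Gadd45a, chr10:80929841-80930090 on the plus strand for Gadd45b and chr13:51846425-51846674 on the plus strand for Gadd45g, each with CANNTG in capitals.
Gadd45a: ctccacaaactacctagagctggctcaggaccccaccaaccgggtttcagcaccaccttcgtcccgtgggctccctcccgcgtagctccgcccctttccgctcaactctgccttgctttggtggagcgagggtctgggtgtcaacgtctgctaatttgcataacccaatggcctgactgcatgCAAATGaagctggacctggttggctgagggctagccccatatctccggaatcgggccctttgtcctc
Gadd45b: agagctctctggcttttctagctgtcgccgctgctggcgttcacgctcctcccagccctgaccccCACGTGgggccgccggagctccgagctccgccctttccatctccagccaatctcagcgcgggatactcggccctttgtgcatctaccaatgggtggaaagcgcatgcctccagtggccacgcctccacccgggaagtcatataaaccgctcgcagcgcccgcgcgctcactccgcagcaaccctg
Gadd45g: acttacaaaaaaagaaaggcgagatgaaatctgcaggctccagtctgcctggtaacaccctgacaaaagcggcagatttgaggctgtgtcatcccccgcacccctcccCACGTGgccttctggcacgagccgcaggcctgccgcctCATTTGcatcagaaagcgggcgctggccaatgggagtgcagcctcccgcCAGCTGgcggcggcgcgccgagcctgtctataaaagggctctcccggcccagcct

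The sequences are from RefSeq on GRCm38.p6 (mm10), in which 7 of the 8 listed genes had an entry, and each motif was searched on both strands. Before the distal start of Cdkn1a there were 2 matches to the p53 half-site, one of which reads GAACATGTCT and lies 51 to 42 bases upstream of the start. Before the proximal start there were 0. Gadd45a held 1 (GGGCTAGCCC, 40 to 31 bases upstream), which is left in lower case above. Of 32851 promoter sequences of this length, 7.13% held a match. The sequence of the proximal start held 1 E box, that of the distal start 0, that of Gadd45a 1, that of Gadd45b 1 and that of Gadd45g 3, against at least 1 in 66.2% of promoters. Gadd45b and Gadd45g each held the E box CACGTG, whose own share of promoters was not counted, and a TATAAA element (12.4% of promoters). In Gadd45a neither was matched. The MEF2 site, present in 2.92% of promoters, was matched in 1 member, Cdkn1b, 237 to 228 bases upstream of its start on chromosome 6 (tttgtttgtcTTATTTTTAAtttctccggg, site in capitals). A match is a description of the letters and not evidence of binding.

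The cell cycle exit genes stood at 67.5% (Gadd45b) to 110% (Cdkn1b) of their scrambled level in siMEF2A. In the limma fit 0 of the 8 were called in either direction, and 3 were lower at an unadjusted p under 0.05, namely Gadd45b, Cdkn1a and Gadd45g. Over all genes tested 1.73% were called, 0.406% higher and 1.32% lower, and 6.39% had an unadjusted p under 0.05, 3.09% higher and 3.3% lower. In 4 of the 8 genes both siMEF2A libraries lay below both scrambled libraries (Cdkn1a, Gadd45b, Gadd45g and Ccnd3), as in 9.14% of all genes tested. In 0 of the 8 both lay above, as in 18.8% of all genes. The log2 fold changes ran from -0.53 to 0.14 with a median of -0.19, beside a median of 0.04 over all genes. In bulk RNA, fewer cells that express a gene and less of its RNA per cell cannot be told apart. The lower markers of myotubes given above move with the groups, and their part in these differences was not tested.

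**Figure D1:**
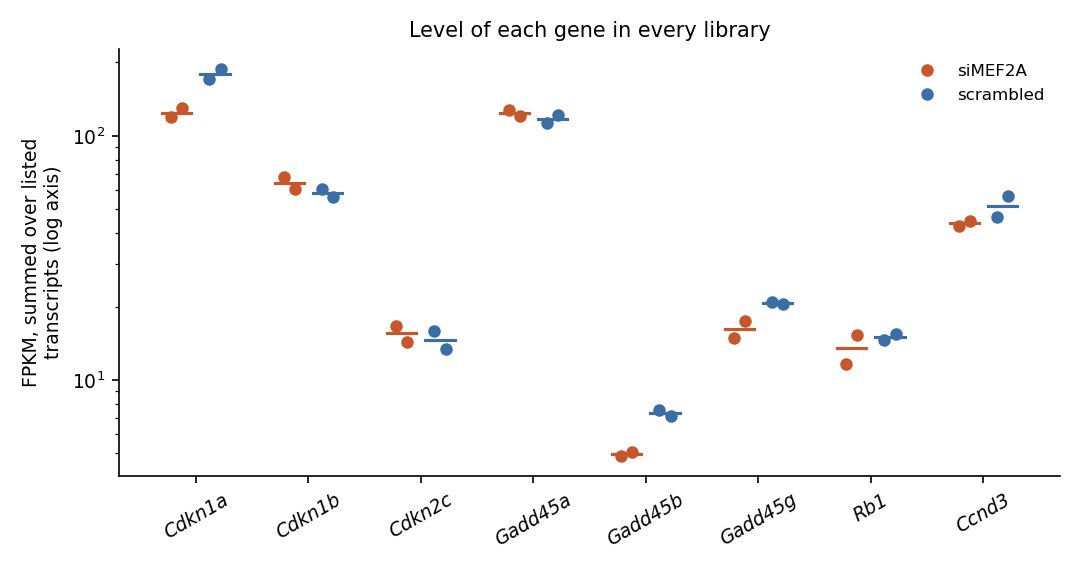
FPKM of the 8 genes (log axis) in the 2 siMEF2A libraries and the 2 scrambled libraries, with points for libraries and lines for group means. The groups do not overlap for Cdkn1a, Gadd45b, Gadd45g and Ccnd3, where siMEF2A lies lower, and overlap for the other 4 genes.

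Cdkn1a (ENSMUSG00000023067, chr17:29090976-29100727, plus strand) encodes p21, the CDK inhibitor that myoblasts switch on as they differentiate and that p53 induces after DNA damage. It was at 119 and 130 FPKM in the siMEF2A libraries, against 171 and 189 FPKM in the scrambled libraries. The groups do not overlap, and the gap between them is wider than that between libraries of a group. Its mean was 125 ± 7.37 FPKM in siMEF2A and 180 ± 12.5 FPKM in scrambled (SD, n = 2 each), or 69.2% of scrambled. The difference of -0.53 on the log2 scale (SE 0.17, 95% interval -0.88 to -0.17) missed the threshold once adjusted (limma adjusted p = 0.175, unadjusted p = 0.00466).

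The 3 listed transcripts of Cdkn1a differ in where they start. The main one (ENSMUST00000023829, 1913 bases, coding), which starts at the proximal site, was at 108 and 121 FPKM in siMEF2A and 161 and 180 FPKM in scrambled. The one from the distal site (ENSMUST00000119901, 922 bases, coding) was at 9.50 and 7.06 FPKM in siMEF2A and 6.54 and 6.63 FPKM in scrambled. The proximal transcript was thus lower, and the distal one higher, in both siMEF2A libraries. For the distal one, siMEF2A library 2 minus library 1 was -0.38 on the log2 scale, larger in size than the 0.28 between the groups. How the estimate divided reads shared by the transcripts also enters these values. As a percentage of the proximal transcript, the distal one stood at 8.80% and 5.85% in siMEF2A and at 4.06% and 3.67% in scrambled. The groups do not overlap, but 2 libraries against 2 cannot go below p = 0.333 in an exact two-sided permutation test, which is the value found. In a limma fit over 23600 transcripts, 0.225% were called, and of the 21 tested transcripts of the 8 genes 0 were. At an unadjusted p under 0.05, 2 of the 21 were lower, against 2.96% of all transcripts, and these were the proximal one of Cdkn1a and that of Gadd45b. Neither Cdkn1a transcript passed (log2 fold change -0.57, SE 0.17, adjusted p = 0.502 for the proximal one and 0.28, SE 0.18, adjusted p = 1.0 for the distal one).

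**Figure D2:**
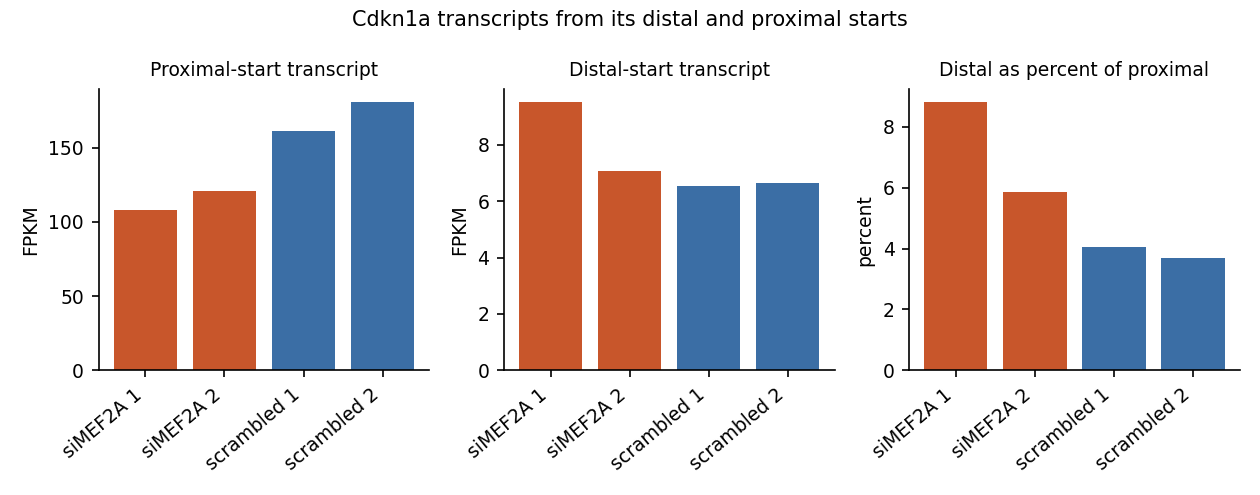
FPKM of the Cdkn1a transcript from the proximal start, of that from the distal start, and the distal one as a percentage of the proximal one, each bar standing for 1 library. The proximal transcript is at 108 and 121 FPKM in siMEF2A and 161 and 180 FPKM in scrambled, and the percentage is at 8.80% and 5.85% in siMEF2A and 4.06% and 3.67% in scrambled.

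Cdkn1b (ENSMUSG00000003031, chr6:134920401-134925513, plus strand) encodes p27, a Cip/Kip inhibitor governed largely by protein turnover. It was at 67.9 and 60.5 FPKM in siMEF2A, against 60.5 and 56.0 FPKM in scrambled. The groups overlap, with a mean at 110% of scrambled (log2 fold change 0.14, 95% interval -0.19 to 0.46, limma adjusted p = 1.0). Its 2 listed transcripts share a start and an end, and the longer one (4552 bases) held 45.5% and 51.4% of the sum in siMEF2A and 57.4% and 47.2% in scrambled. Such shares of transcripts with the same ends depend on how the estimate divided shared reads.

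Cdkn2c (ENSMUSG00000028551, chr4:109660876-109667189, minus strand) encodes p18, an INK4 inhibitor of CDK4 and CDK6. It was at 16.7 and 14.4 FPKM in siMEF2A and at 15.9 and 13.4 FPKM in scrambled. Library 1 was above library 2 in both groups, and the groups overlap (log2 fold change 0.08, 95% interval -0.23 to 0.39, limma adjusted p = 1.0). Both a longer and a shorter coding transcript with different starts were listed, as known for this gene, whose downstream promoter is used in differentiating muscle. The downstream-start transcript of 1106 bases exceeded the upstream-start transcript of 2471 bases 15.9 and 11.4 times in siMEF2A and 11.5 and 9.11 times in scrambled. These ratios overlap between the groups (exact two-sided permutation p = 0.667).

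Together Cdkn1a, Cdkn1b and Cdkn2c summed to 204 and 205 FPKM in siMEF2A and 247 and 258 FPKM in scrambled. Cdkn1a made up 58.5% and 63.4% of that sum in siMEF2A and 69.1% and 73.1% in scrambled. The ratio of Cdkn1a to Cdkn1b was 1.76 and 2.15 in siMEF2A, against 2.83 and 3.37 in scrambled. For each of these 3 quantities siMEF2A lay lower without overlap, at the smallest exact permutation p that 2 against 2 allows (0.333, two-sided). Cdkn1a enters all 3, and Cdkn1b and Cdkn2c overlapped between the groups, so they are not separate results from that of Cdkn1a.

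Gadd45b (ENSMUSG00000015312, chr10:80930073-80932204, plus strand) encodes a member that activates MAP3K4 and through it p38. Its 1 listed transcript was at 4.87 and 5.05 FPKM in siMEF2A, against 7.55 and 7.15 FPKM in scrambled. Libraries of a group were close to each other, and the groups do not overlap. The mean was 4.96 ± 0.129 FPKM in siMEF2A and 7.35 ± 0.282 FPKM in scrambled (SD, n = 2 each), 67.5% of scrambled. The log2 fold change was -0.49 (SE 0.15, 95% interval -0.79 to -0.19), with the smallest p among the 8 genes, and did not pass (limma adjusted p = 0.108, unadjusted p = 0.00242).

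Gadd45g (ENSMUSG00000021453, chr13:51846678-51848468, plus strand), the third relative, was at 14.8 and 17.5 FPKM in siMEF2A and at 20.9 and 20.4 FPKM in scrambled. Both siMEF2A libraries were lower, with a mean at 78.2% of scrambled (log2 fold change -0.34, SE 0.15, limma adjusted p = 0.614, unadjusted p = 0.0310). Its coding transcript held 93.3% and 91.4% of the sum in siMEF2A and 90.4% and 91.4% in scrambled, the rest being a transcript with a retained intron.

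Gadd45a (ENSMUSG00000036390, chr6:67035096-67037457, minus strand), a p53-induced gene that in mouse muscle is known for its rise in atrophy, differed from both relatives in level. It was at 128 and 120 FPKM in siMEF2A and at 113 and 122 FPKM in scrambled, with overlapping groups (105.6% of scrambled, log2 fold change 0.08, 95% interval -0.26 to 0.42, limma adjusted p = 1.0). The coding transcript, of 5 listed, held 93.8% in both siMEF2A libraries and 92.6% and 94.5% in scrambled. E230016M11Rik, a noncoding gene on the other strand, overlaps it and was at 25.9 and 21.9 FPKM in siMEF2A and 22.5 and 22.7 FPKM in scrambled. With no stated use of strand, reads in the stretch that the 2 genes share may have been credited to either.

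The ratio of Gadd45a to Gadd45b was 26.2 and 23.8 in siMEF2A, against 14.9 and 17.1 in scrambled, and that of Gadd45a to Gadd45g was 8.63 and 6.89 in siMEF2A, against 5.41 and 5.98 in scrambled. Both ratios were higher without overlap in siMEF2A (exact two-sided permutation p = 0.333, the smallest possible). Gadd45a enters both ratios and overlapped between the groups, so they are not separate results from those of Gadd45b and Gadd45g. The sum of the 3 genes, in which Gadd45a dominates, was 147 and 143 FPKM in siMEF2A and 141 and 150 FPKM in scrambled, with overlapping groups.

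Rb1 (ENSMUSG00000022105, chr14:73183673-73325822, minus strand) encodes the pocket protein that holds E2F factors in check. It was at 11.6 and 15.3 FPKM in siMEF2A and at 14.6 and 15.4 FPKM in scrambled. The siMEF2A libraries differed from each other by 0.37 on the log2 scale, more than the groups did (log2 fold change -0.16, 95% interval -0.47 to 0.16, limma adjusted p = 1.0). Its coding transcript of 4656 bases was at 8.77 and 10.8 FPKM in siMEF2A and 10.1 and 11.2 FPKM in scrambled. A retained-intron transcript (ENSMUST00000168495) was at 1.78 and 1.90 FPKM in siMEF2A and 2.76 and 2.48 FPKM in scrambled, lower in both siMEF2A libraries, and did not pass either (limma adjusted p = 0.982 over all transcripts). The genes Lpar6 and Rcbtb2 overlap Rb1 on the other strand, and for reads in shared stretches the same limit holds as for Gadd45a. Of the summed FPKM of Rb1 and its relatives Rbl1 and Rbl2, Rb1 made up 48.4% and 52.3% in siMEF2A and 57.3% and 54.9% in scrambled. Rbl1 and Rbl2 also enter this share, so it is not a separate result on Rb1.

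Ccnd3 (ENSMUSG00000034165, chr17:47505051-47599691, plus strand) was at 42.8 and 45.0 FPKM in siMEF2A and at 46.6 and 56.7 FPKM in scrambled. Both siMEF2A libraries were lower, but the scrambled libraries were 0.28 apart on the log2 scale, against 0.22 between the groups (log2 fold change -0.22, 95% interval -0.55 to 0.10, limma adjusted p = 1.0). The gene has 11 listed transcripts, whose shared reads the estimate can divide in more than 1 way, and the leading coding one (ENSMUST00000182209) was at 24.4 and 26.4 FPKM in siMEF2A and 25.9 and 31.3 FPKM in scrambled. Transcripts from the distal start held 11.3% and 15.2% of the sum in siMEF2A and 13.9% and 17.3% in scrambled. The coding gene Bysl overlaps Ccnd3 on the other strand, at 7.94 and 8.89 FPKM in siMEF2A and 8.29 and 10.0 FPKM in scrambled. For reads in the stretch that Bysl and Ccnd3 share, the same limit holds as for Gadd45a. Among the 3 D cyclins, Ccnd3 made up 78.2% and 78.4% of the summed FPKM in siMEF2A and 84.3% and 84.8% in scrambled, without overlap (exact two-sided permutation p = 0.333, the smallest possible). Ccnd1 and Ccnd2 also enter this share, so it is not a separate result from those of the single genes. Ccnd1, the D cyclin of proliferating myoblasts, was at 9.01 and 8.82 FPKM in siMEF2A and 5.85 and 6.89 FPKM in scrambled, 140% of scrambled (log2 fold change 0.43, SE 0.15), and did not pass (limma adjusted p = 0.237). Ccnd2 was at 2.96 and 3.61 FPKM in siMEF2A and 2.80 and 3.27 FPKM in scrambled.

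**Figure D3:**
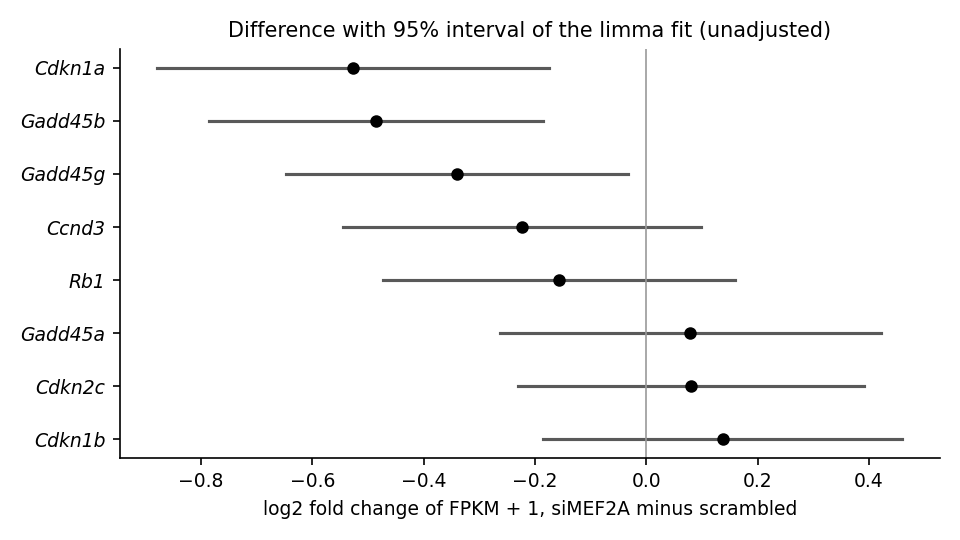
Log2 fold change of FPKM + 1 (siMEF2A minus scrambled) of the 8 genes from the limma fit, with 95% intervals before adjustment. The intervals of Cdkn1a, Gadd45b and Gadd45g lie below 0 and those of the other 5 genes include 0, and none of the 8 passed after adjustment.

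By level, Cdkn1a and Gadd45a led in both groups and Gadd45b was last. In siMEF2A the order of mean FPKM was Cdkn1a (125), Gadd45a (124), Cdkn1b (64.2), Ccnd3 (43.9), Gadd45g (16.2), Cdkn2c (15.5), Rb1 (13.5) and Gadd45b (4.96). There Cdkn1a and Gadd45a overlapped, as did Gadd45g with Cdkn2c and Cdkn2c with Rb1. In scrambled the order was Cdkn1a (180), Gadd45a (118), Cdkn1b (58.2), Ccnd3 (51.7), Gadd45g (20.6), Rb1 (15.0), Cdkn2c (14.6) and Gadd45b (7.35). There Cdkn1b overlapped with Ccnd3 and Rb1 with Cdkn2c, while Cdkn1a stood clear of Gadd45a. In scrambled, Cdkn1a was above 95.9% of the genes tested, Gadd45a above 93.9% and Gadd45b above 37.3%.

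The gene whose pattern over the 4 libraries was most like that of Gadd45b, by root-mean-square distance of log2 values centred on each gene's mean, was Pdlim7, at a distance of 0.022. It was at 68.4 and 68.9 FPKM in siMEF2A and 102 and 93.6 FPKM in scrambled (limma adjusted p = 0.159). Best1 and Arhgef39 followed at 0.042 and 0.043, among 11823 genes compared. With 4 libraries this likeness is a description.

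No gene of the other cell cycle lists passed the limma test. Of 16 other cyclin, CDK, CDC25 and Wee1 genes 0 passed limma in either direction (median log2 fold change 0.04), with 1 at an unadjusted p under 0.05, Ccnd1. The smallest p after it was that of Cdk4, the partner of D cyclins, at 429 and 367 FPKM in siMEF2A and 332 and 365 FPKM in scrambled (limma adjusted p = 1.0). Of 16 tested pocket protein, E2F and DREAM complex genes 0 passed (median 0.09), with 1 at an unadjusted p under 0.05. It was E2f2, an activator E2F, at 5.06 and 6.88 FPKM in siMEF2A and 8.64 and 8.57 FPKM in scrambled (69.4% of scrambled, limma adjusted p = 0.169). In that list Lin54 was at 121% of scrambled. Of the other CDK inhibitors, Cdkn2d and Cdkn3 were tested and neither passed, at 96.5% and 87.5% of scrambled, and their list had 0 at an unadjusted p under 0.05.

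Of 22 tested S phase genes, targets of E2F, limma called 0, and the unadjusted p was under 0.05 in 0 (median 0.06). Rrm2, a ribonucleotide reductase subunit, was at 79.5% and Hells, a chromatin remodeller, at 136% of scrambled. Of 22 tested mitosis genes 0 passed and 0 had an unadjusted p under 0.05 (median 0.04), with Birc5 (survivin) at 90.6% and Prc1 at 83.7% of scrambled. Their summed FPKM was 110 and 113 in siMEF2A and 107 and 114 in scrambled, with overlapping groups. Mki67, the gene of the proliferation antigen Ki-67, was at 1.20 and 1.40 FPKM in siMEF2A and 1.27 and 1.32 FPKM in scrambled.

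Of 21 tested p53 pathway genes limma called 0, and the unadjusted p was under 0.05 in 0, with a median log2 fold change of 0.02. Mdm2, a p53 target and its ubiquitin ligase, was at 33.5 FPKM in both siMEF2A libraries and 33.4 and 32.3 FPKM in scrambled. Sesn1 and Trp53inp1, both p53 targets, were at 114% and 118% of scrambled. Of 11 genes of Gadd45 partners and stress kinases 0 passed (median 0.06), with 1 at an unadjusted p under 0.05. It was Mapk14, the gene of p38 alpha, at 21.6 and 23.4 FPKM in siMEF2A and 15.9 and 19.0 FPKM in scrambled (limma adjusted p = 0.550), and Map2k6, which activates p38, was at 119% of scrambled. Of 12 genes of p27 and p21 turnover 0 passed and 0 had an unadjusted p under 0.05 (median 0.02), Rnf123 being at 86.6% and Dtl at 114% of scrambled. Cdk1, Ccnb1 and Pcna stand in 2 of these lists.

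Early muscle genes differed from this. Their list holds the siRNA target and was chosen with earlier results of these data known, so the background share beside it is no test. Of 15 tested, 11 were called lower and 0 higher, with a median log2 fold change of -0.94, beside 1.32% of all genes called lower. The called genes were Mef2a itself, the sarcomere genes Myl4 (23.8% of scrambled), Myh3 (33.0%), Tnnt3 (45.2%), Tnnt1 (49.6%), Tnnt2 (51.9%) and Actc1 (51.9%), the creatine kinase gene Ckm (39.9%), the fusion genes Tmem8c (59.7%) and Gm7325 (63.8%), and Myog (63.2%). Tested but not called were Des (71.0%), Myod1 (71.6%), Myf5 (93.8%) and Mef2d (93.9%). Myog, the gene of myogenin, was at 80.5 and 86.2 FPKM in siMEF2A and 126 and 138 FPKM in scrambled (log2 fold change -0.66, SE 0.17, limma adjusted p = 0.0287). Without scrambled library 2, siMEF2A library 1 or siMEF2A library 2 the Myog call was lost (limma adjusted p = 0.127, 0.466 and 0.178), and the Tmem8c call likewise (0.148, 0.238 and 0.0547). The Gm7325 call was lost without scrambled library 1 (0.221), siMEF2A library 1 (0.261) or siMEF2A library 2 (0.180), and the Tnnt2 call without siMEF2A library 1 (0.101). Whether Cdkn1a differed from these genes in the size of its change was not tested.

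**Figure D4:**
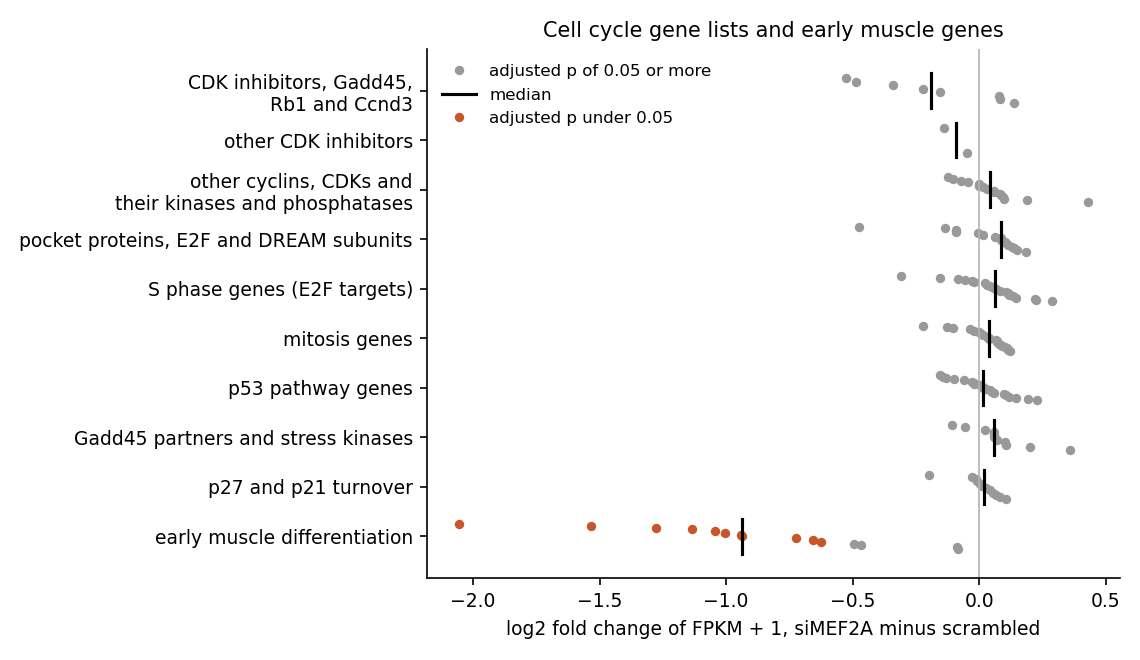
Log2 fold change of FPKM + 1 (siMEF2A minus scrambled) of each tested gene in the cell cycle exit set, the other cell cycle lists and the early muscle list, with black lines for medians and orange points for genes with an adjusted p under 0.05. The 11 orange points are all in the early muscle list, and every cell cycle list has its median between -0.19 and 0.09.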

How the data were processed

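RNA was measured by RNA-seq in 2 siMEF2A and 2 scrambled libraries of C2C12 cells, made with an Illumina TruSeq RNA kit, per the labels' protocols. The authors deposited FPKM for each Ensembl transcript and library, per the file headers. Build mm10 and the tools TopHat, Bowtie, Cufflinks, Trimmomatic and CASAVA are named, per the submitters' processing notes. For versions, settings, annotation, use of strand and scaling between libraries: not given in the sources used here. FPKM of reads shared between transcripts rest on the authors' estimate, and absolute depth is unknown.

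FPKM were summed per gene symbol, 26 symbols beginning with Mir, Snor or Scarna (which include 2 long host genes) were dropped, and a gene's mean had to reach 1 FPKM. Groups were compared on log2(FPKM + 1), which understates changes of low genes, by a two-sided linear model in limma 3.58.1 under R 4.3.3, its variances moderated with an intensity trend, with Benjamini-Hochberg adjustment over all genes. The fit had 2 residual and 29.0 prior degrees of freedom. A second fit used each transcript. Transcript types and gene positions are from GENCODE M21 (mm10). Values of a single ratio were compared with an exact permutation test (scipy 1.17.1).

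Alternatives were 3 other scalings, a pseudocount of 0.1, no filter, a minimum of 5 FPKM, no trend, the replicate number as a block, and leaving out each library. The named genes were all members, Mef2a, Myog, every called gene and the 2 with the smallest p of each list, and the 3 genes nearest in pattern to the member with the smallest p. Mdm2, Mki67, Ccnd2, Lpar6, Rcbtb2, Bysl, E230016M11Rik, Des, Myod1, Myf5 and Mef2d were added after their values were seen. Members and lists were chosen with earlier results of these data known.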

Additional observations from a re-analysis of the deposited data

How the results depend on the processing

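Over 12 alternatives, Cdkn1a, Gadd45b, Gadd45g and Ccnd3 stayed lower and Cdkn1b and Gadd45a higher in siMEF2A, with log2 fold changes from -0.60 to -0.46 for Cdkn1a and from -0.56 to -0.45 for Gadd45b. Relative to their size, others moved more when 1 library was left out: Gadd45g from -0.45 to -0.23, Ccnd3 from -0.36 to -0.085, Cdkn1b from 0.054 to 0.22, Gadd45a from 0.020 to 0.14 and E2f2 from -0.66 to -0.29. Leaving out 1 library turned the sign of values near 0. The log2 fold change of Cdkn2c ran from -0.032 (without scrambled replicate 2; also negative without siMEF2A replicate 1) to 0.19, that of Rb1 from -0.34 to 0.027 (without siMEF2A replicate 1) and that of Cdkn2d from -0.11 to 0.013 (without siMEF2A replicate 2). The count of called cell cycle exit genes was 0 under 11 alternatives. With the replicate block, which fits the library numbers, it was 2, Cdkn1a (limma adjusted p = 0.00663) and Gadd45b (0.00542), both lower. That fit called 508 of all genes tested, 4.3%, against 204 without the block. The labels do not say that the numbers pair libraries, and block and pairing here use the titles' numbers, which the column headers do not share (2 and 3 for scrambled 1 and 2, but 1 and 2 for siMEF2A). Libraries of the same title number deviated together (r = 0.29 across genes). Swapping the numbers within 1 group would only turn the sign of this r, so it cannot show whether the numbers pair libraries. Ccnd1, E2f2, Mapk14, Pdlim7, Best1 and Arhgef39 were also called with the block. The count over all genes was 118 under quantile normalization, 0.998% of those tested, against 1.73% in the fit reported above. At a minimum of 5 FPKM, which left fewer genes to test, it was 134, or 1.55%. Of the 204 calls 48 were higher and 156 lower, with 13 and 131 under median-ratio, 14 and 131 under upper-quartile and 11 and 107 under quantile scaling. The 0 calls among transcripts of these genes held under the 7 alternatives reported for them. These were median-ratio scaling, the pseudocount of 0.1, the block and leaving out each library. Quantile normalization also ended the calls of Myog (limma adjusted p = 0.0922), Tmem8c (0.0809) and Gm7325 (0.0837), and testing without a filter those of Myog (0.0565) and Gm7325 (0.0503). The cause of these changes was not tested. Without absolute depth, counting error could not be separated from other spread.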
